A study of Mus musculus with 24 samples.

Results

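Cajal-Retzius cells of the adult hippocampus were taken as the nuclei that carried the authors' label CR-CR in the single-nucleus RNA table, which had 17 cell type labels. They made up 400 of 30880 nuclei. Tissue was ventral hippocampus of adult male mice, 10 to 16 weeks old, of the inbred strains C57BL/6J (B6) and DBA/2J (D2), with no transgene and no treatment in either group. Each strain had 2 libraries, tissue of about 2 animals was pooled for each library, and nuclei were sorted to 75% NeuN-positive and 25% NeuN-negative before loading. The libraries are called here by the strain and the number in the column names of the table, 2 or 3.

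Cajal-Retzius cells are among the earliest neurons of the cortex and hippocampus. They lie in the marginal zone, secrete the glycoprotein reelin, and depend on the transcription factor p73, the product of Trp73. Most are lost after birth, but in the rodent hippocampus some persist along the hippocampal fissure into adulthood. They are glutamatergic and use the vesicular transporter encoded by Slc17a6.

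The Cajal-Retzius markers used here, Trp73, Lhx1 and Reln, start from promoters of unequal CpG content. Trp73 lies on chromosome 4 at 154056253 to 154140208, minus strand (GRCm38), and has 2 entries in the RefSeq promoter table, one before the full-length (TA) transcripts and an internal one before the N-terminally truncated transcripts. Lhx1, a LIM-homeodomain factor of early Cajal-Retzius neurons, lies on chromosome 11 at 84518284 to 84525535, minus strand. The 250 bases before each RefSeq start (GRCm38.p6) of Trp73 and Lhx1 are shown. Of the markers used here, only Trp73 and Lhx1 were higher in CR-CR than in any other label in every library. Capitals mark CG pairs.
Trp73, internal promoter, chr4:154097174-154097423, minus strand: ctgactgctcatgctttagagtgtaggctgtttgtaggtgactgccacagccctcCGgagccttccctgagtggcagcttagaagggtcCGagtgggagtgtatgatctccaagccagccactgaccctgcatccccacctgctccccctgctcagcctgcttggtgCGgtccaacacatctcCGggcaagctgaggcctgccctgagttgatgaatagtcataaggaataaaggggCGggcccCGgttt
Trp73, upstream promoter, chr4:154139876-154140125, minus strand: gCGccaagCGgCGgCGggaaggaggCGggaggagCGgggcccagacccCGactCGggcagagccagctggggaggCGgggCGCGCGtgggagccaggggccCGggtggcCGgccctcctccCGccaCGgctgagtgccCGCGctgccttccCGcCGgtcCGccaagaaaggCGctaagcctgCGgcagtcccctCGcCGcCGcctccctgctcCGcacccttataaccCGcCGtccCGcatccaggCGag
Lhx1, chr11:84525535-84525784, minus strand: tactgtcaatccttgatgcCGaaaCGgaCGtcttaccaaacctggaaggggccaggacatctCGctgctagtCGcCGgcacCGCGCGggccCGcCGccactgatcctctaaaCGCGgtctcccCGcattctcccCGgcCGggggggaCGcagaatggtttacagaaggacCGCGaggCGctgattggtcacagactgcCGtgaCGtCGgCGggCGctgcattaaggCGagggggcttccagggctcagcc

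The internal Trp73 promoter had 6 CG pairs in 250 bases, the median of the 32851 mouse promoters in the RefSeq table being 6.0. The upstream Trp73 promoter had 31 and the Lhx1 promoter 26; 9.59% of all promoters had 26 or more. Reln (chr5) had 37 CG pairs and a GC content of 80.0%. Counts were summed per gene, so the part of the Trp73 counts that came from each promoter is not known.

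CR-CR nuclei were scarcer in D2 than in B6. They numbered 171 of 8707 nuclei in B6 library 2 (1.96%, exact 95% interval 1.68 to 2.28) and 138 of 7858 in B6 library 3 (1.76%, 1.48 to 2.07). D2 library 2 had 45 of 8003 (0.562%, 0.410 to 0.752) and D2 library 3 had 46 of 6312 (0.729%, 0.534 to 0.971). The libraries of the 2 strains did not overlap. With the libraries of a strain added, the share was 1.87% in B6 and 0.636% in D2. CR-CR was the smallest of the 17 labels in D2 and ranked 4 from the smallest in B6. Among neuronal labels alone the shares were 2.82% and 0.952%. The intervals cover counting error only, and the difference is given as a description; with 2 libraries a strain the smallest p of an exact permutation test is 0.333.

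**Figure D1:**
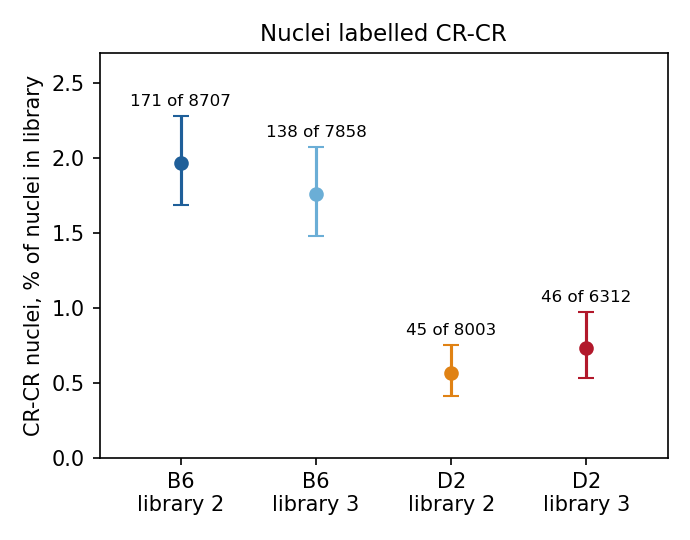
Nuclei labelled CR-CR as a percentage of all nuclei of a library (y axis) in the 4 RNA libraries (x axis), with exact 95% binomial intervals and the number of nuclei above each point. The B6 libraries stand at 1.96% and 1.76% and the D2 libraries at 0.562% and 0.729%.

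Counts summed over CR-CR nuclei were 475049 and 477334 in B6 libraries 2 and 3 and 133652 and 156059 in D2 libraries 2 and 3, over the 24691 gene symbols counted in both strains. That was 2778, 3459, 2970 and 3393 counts per nucleus. The 11 other neuronal labels had 5951 to 12101 counts per nucleus and the 5 non-neuronal labels 1753 to 4094, so CR-CR nuclei were as shallow as glia. Levels below are CPM, counts scaled to an equal total over these symbols, not divided by gene length. A single count is worth 7.48 CPM in D2 library 2. In such sums, fewer cells of a type and less RNA per cell cannot be told apart.

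The markers Trp73, Lhx1 and Reln were high in CR-CR, least so in D2 library 3. The paper does not say which genes named this label. Trp73 was at 379 and 404 CPM in B6 libraries 2 and 3, and at 239 and 64.1 CPM in D2 libraries 2 and 3. The highest other label reached 2.42 CPM in B6 (NN-MGC, microglia) and 9.04 CPM in D2 (NN-OPC, oligodendrocyte precursors). Lhx1 was at 175, 153, 262 and 76.9 CPM in the same order, against at most 1.62 CPM in any other label. Both genes were thus highest in CR-CR in all 4 libraries. Reln was at 4341, 4862, 2911 and 1275 CPM. The next highest label, the Inh-Lamp5 interneurons, had 997 CPM in B6, and in D2 it had 1448 CPM, so Reln in D2 library 3 was below that label. The labels come from clustering these same nuclei, so the comparison with other labels is a description with no test.

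Only 3 genes met the rule for an identity gene, which asked for at least 10 counts in every CR-CR library and a CPM at least 4 times that of any other label of the same strain. They were Lhx1, with a smallest ratio of 94.7 over the 4 libraries, Igfbpl1 (29.0) and Trp73 (7.09). Igfbpl1, on chromosome 4 at 45809468 to 45826923, encodes an insulin-like growth factor binding protein-like molecule and is known as a marker of immature neurons of the dentate gyrus. It was at 213 and 161 CPM in B6 and 224 and 557 CPM in D2, highest in the library where Trp73 was lowest. Genes just outside the rule included Dach1 (smallest ratio 3.08), Adamts18 (2.45) and Ezh2 (2.02).

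D2 library 3 limited that list. Without it, 10 genes met the rule: Lhx1, Lhx1os, Gm49027, Igfbpl1, Trp73, Hydin, Vmn2r2, Vmn2r1, Dach1 and Ndnf. Lhx1os, a long non-coding RNA that starts beside Lhx1 on the other strand, was at 114, 119 and 112 CPM in the first 3 libraries and at 25.6 CPM in D2 library 3. Hydin, a gene of motile cilia, was at 135, 132, 74.8 and 25.6 CPM. Vmn2r1 and Vmn2r2 belong to the vomeronasal receptor family, which has many similar copies. Vmn2r2 was at 162, 191, 119.7 and 44.9 CPM and Vmn2r1 at 77.9, 124, 74.8 and 32.0 CPM, so D2 library 3 was lowest for both. Ndnf, a secreted neurotrophic factor also made by neurogliaform interneurons, was at 1124, 1303, 778 and 288 CPM. Gm49027 overlaps Diablo on the same strand, so counts of these genes cannot be fully separated.

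**Figure D2:**
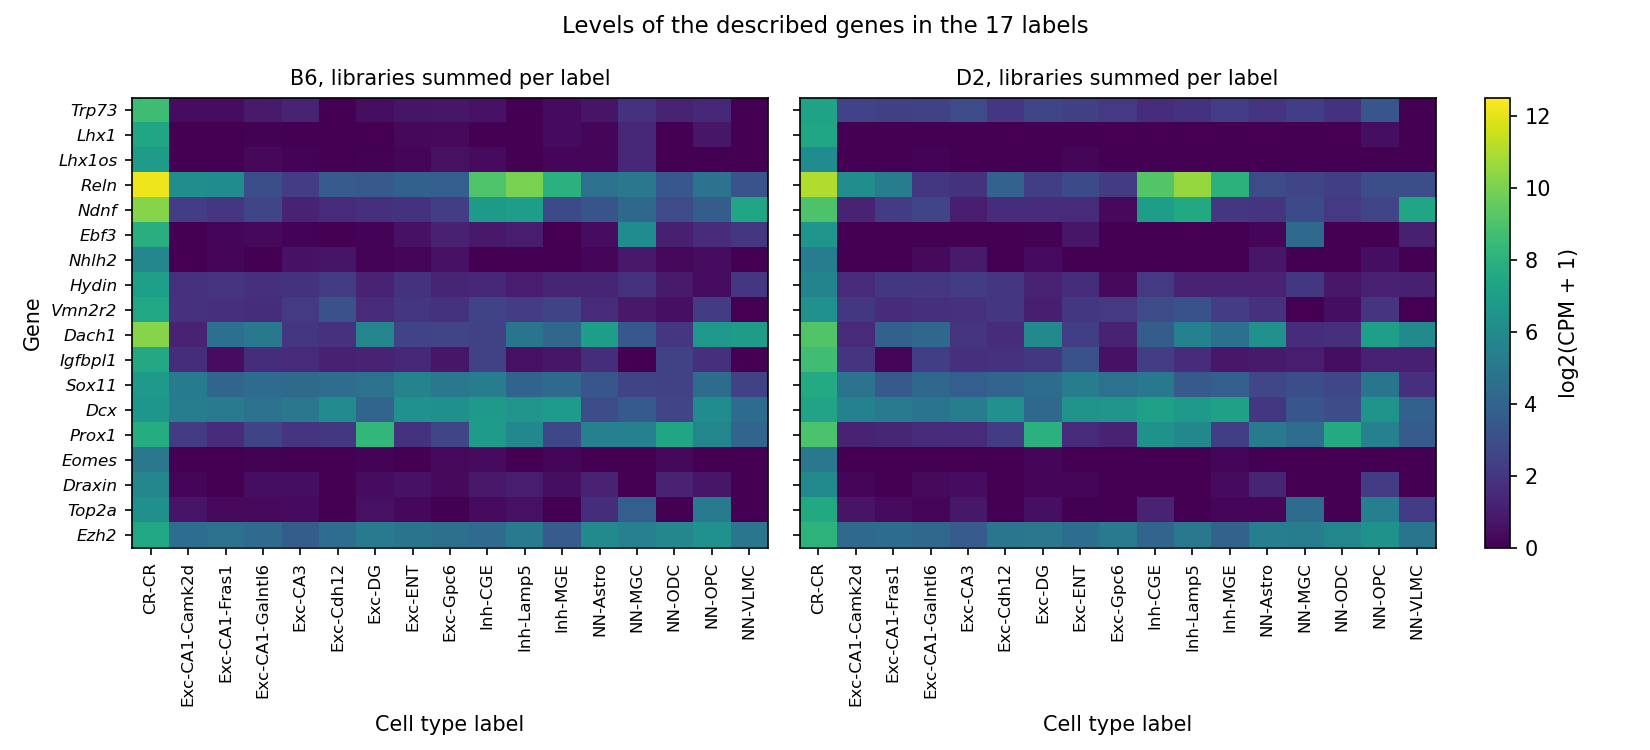
Level of 18 genes (rows) in the 17 cell type labels (columns) as log2(CPM + 1), with the libraries of each strain summed, B6 on the left and D2 on the right. Lhx1, Lhx1os and Nhlh2 reach at most 1.62 CPM outside CR-CR, while Reln is also seen in Inh-Lamp5 and Inh-CGE and Prox1 in Exc-DG.

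Of the 19 transcription factors listed for Cajal-Retzius cells, 7 were higher in CR-CR than in every other label in all 4 libraries: Trp73, Lhx1, Ebf3, Nhlh2, Tbr1, Emx2 and Dmrt3. The share of all symbols that met this was not counted, and Dmrt3 had only 2 counts in each D2 library. Ebf3, a factor of the COE family, was at 183, 270.3, 149.6 and 38.4 CPM, against at most 67.0 CPM elsewhere. Nhlh2, a basic helix-loop-helix factor, was at 44.2, 62.8, 52.4 and 25.6 CPM, and no other label exceeded 0.840 CPM. Emx2, which patterns the medial pallium, was even across the libraries, at 73.7, 92.2, 97.3 and 83.3 CPM. Lhx5 was at 48.4, 25.1 and 22.4 CPM and had no count in D2 library 3. Ebf1 and Zic1, which mark other Cajal-Retzius sources in the embryo, reached at most 27.2 and 25.1 CPM, well below the NN-VLMC label (leptomeningeal cells), where they stood at up to 653 and 349.6 CPM.

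Of the 12 listed genes of the Reelin pathway, Reln was above all other labels in 3 libraries and none was above all other labels in every library. The receptor Lrp8 was at 118, 109, 59.9 and 122 CPM and the receptor Vldlr at 14.7, 23.0, 7.48 and 38.4 CPM. Dab1, the adaptor phosphorylated when reelin binds, was at 1387, 1236, 1414 and 2083 CPM, below the 4576 CPM of Exc-Cdh12 neurons.

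None of 10 transmitter and chloride transport genes was highest in CR-CR in all 4 libraries. Slc17a6 (VGLUT2) was at 126, 151, 187 and 57.7 CPM and the highest other label, Exc-Gpc6, at 53.9 (B6) and 66.4 CPM (D2), so CR-CR was above it except in D2 library 3. Slc17a7 (VGLUT1) was at 73.7 to 109 CPM, against 379.5 to 416 CPM in the highest other label. Gad1, which makes GABA, was at 16.8 to 59.9 CPM against 511 CPM in Inh-Lamp5. The chloride importer Slc12a2 was at 48.4 to 76.9 CPM and the exporter Slc12a5 at 23.2 to 70.5 CPM.

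A few members of the other lists were higher in CR-CR than elsewhere in all 4 libraries, Hcn4 and Cxcr4 on few counts. They were 2 of 27 guidance and adhesion, 1 of 10 calcium binding and peptide, and 1 of 28 ion channel genes. The apoptosis list gave 2 of 17 and the chemokine and trophic list 2 of 15. The share over all symbols was not counted. Robo2, a receptor for Slit repellents, was at 2113, 2061, 1579 and 782 CPM and at most 737 CPM in another label. Dcc, the netrin receptor, was at 2928, 2918, 2903 and 3255 CPM against 2529 CPM. Calb2 (calretinin) was at 42.1, 44.0, 52.4 and 83.3 CPM, and Hcn4, a pacemaker channel, at 14.7, 8.38, 44.9 and 6.41 CPM (7, 4, 6 and 1 counts). Diablo, a pro-apoptotic mitochondrial protein gene, was at 80.0, 128, 74.8 and 51.3 CPM against 24.4 CPM. Its counts cannot be fully separated from those of Gm49027, as given above. Cxcr4, the receptor for the meningeal chemokine Cxcl12, was at 6.28 to 51.3 CPM against at most 3.33 CPM, with 9, 3, 2 and 8 counts in library order. Of 22 glutamate receptor genes and 27 inhibitory and modulatory receptor genes, none was highest in CR-CR in every library. Cacna2d2, a calcium channel subunit, was at 535, 534, 412 and 205 CPM, above all other labels in 3 libraries.

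Some of a second group of genes, chosen after the values were seen, were also highest in CR-CR. Of 13 genes of newborn neurons, 6 were higher in CR-CR than in any other label in all 4 libraries: Eomes, Neurod1, Igfbpl1, Sox11, Draxin and Calb2. The share of all symbols that met this was not counted, and Eomes and Neurod1 had only 1 count each in D2 library 2. Sox11, a factor of immature neurons, was at 112, 103, 67.3 and 308 CPM, and Dcx, the microtubule protein of migrating neuroblasts, at 96.8, 88.0, 59.9 and 237 CPM, against up to 139.6 CPM in Inh-MGE. Eomes, a factor of intermediate progenitors and of some Cajal-Retzius neurons, was at 29.5, 31.4, 7.48 and 51.3 CPM and at most 0.271 CPM elsewhere. Prox1, the factor of granule neurons, was at 244, 186, 359 and 615 CPM, and its highest other label was Exc-DG at 310.2 CPM in B6. D2 library 3 was highest for 11 of the 13 genes; Stmn1 was highest in D2 library 2 (299 CPM against 237 CPM in D2 library 3) and Tubb3 in B6 (88.4, 69.1, 0 and 19.2 CPM).

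Of 12 genes of dividing cells, Top2a, Kif11, Ezh2 and Smc2 were above all other labels in every library, again with no share over all symbols counted. Top2a, which untangles chromosomes at mitosis, was at 33.7, 119, 149.6 and 231 CPM, and its highest other label was NN-OPC at 33.5 and 41.7 CPM. D2 library 3 was highest for 10 of the 12, but not for Kif11 (12.6, 46.1, 37.4 and 38.4 CPM) and was lowest for Mcm6 (12.8 CPM). None of 7 neural progenitor genes was highest in CR-CR throughout, and they summed to 61.0, 67.0, 374 and 211 CPM. Egfr alone gave 31.6, 29.3, 262 and 135 CPM of these sums. Summed over the 13 newborn neuron genes, CR-CR had 1558, 1339, 2095 and 3652 CPM. The highest other label for this sum, NN-VLMC, had 1556 CPM in B6 and 2018 CPM in D2. Summed over Trp73, Reln and Lhx1, CR-CR had 4894, 5420, 3412 and 1416 CPM. D2 library 3 was thus lowest in the marker sum and highest in the newborn neuron sum. Of the 19 listed transcription factors it was lowest for 9 and highest for 3, with Tbr1, Emx2 and Dmrt3 among those at neither end. Per nucleus, Trp73 gave 1.05, 1.40, 0.711 and 0.217 counts and Igfbpl1 0.591, 0.558, 0.667 and 1.89. Whether the label holds more than a single kind of cell was not tested, since counts of single nuclei were not used here.

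**Figure D3:**
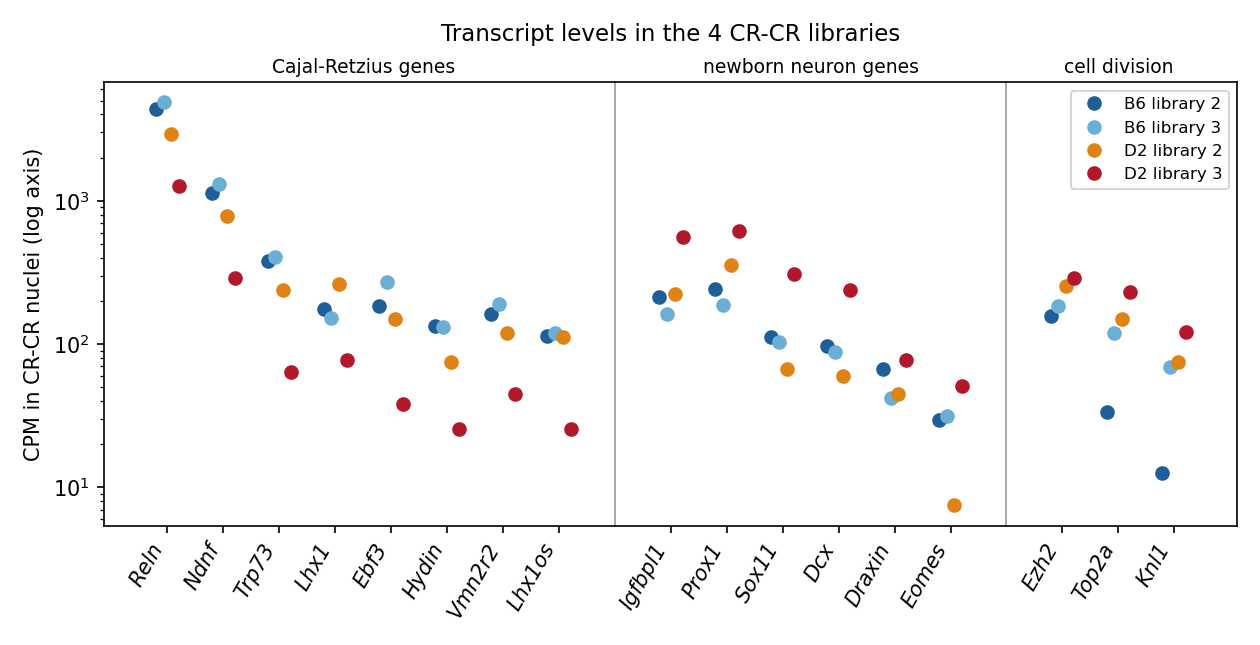
CPM in CR-CR nuclei (y axis, log scale) of Cajal-Retzius genes, newborn neuron genes and cell division genes (x axis), 1 point per library. The genes were chosen after their values were seen: D2 library 3 is lowest for the 8 Cajal-Retzius genes shown and highest for the 9 others, while over the lists it was lowest for 9 of 19 transcription factors and highest for 11 of 13 newborn neuron and 10 of 12 division genes.

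Across the 8305 genes with a mean of 20 CPM or more in CR-CR, the CR-CR libraries of B6 were alike. Pearson's r of log2(CPM + 1) over these genes was 0.915 for the B6 pair and 0.724 for the D2 pair. It was 0.726 to 0.751 for pairs of different strains. D2 libraries hold fewer counts. The label most like CR-CR was Inh-CGE for 3 libraries (r = 0.652 to 0.751) and Exc-DG for D2 library 3 (r = 0.670). The margins were small. NN-OPC stood at 0.649 in D2 library 2 and 0.6575 in D2 library 3, and Exc-CA1-Camk2d at 0.738 in B6 library 2. These are descriptions across genes.

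Summed markers of other cells were below those of their home labels to unequal degrees. The 8 interneuron markers summed to 90.1 to 179.6 CPM, 4.57% to 7.28% of their sum in Inh-Lamp5, the 5 oligodendrocyte markers to 112 to 392 CPM (0.855% to 2.88% of NN-ODC), and the 5 microglia markers to 165 to 253 CPM (2.22% to 3.74% of NN-MGC). The 4 astrocyte markers summed to 185 and 147 CPM in B6 and 412 and 327 CPM in D2, 4.86% to 13.2% of NN-Astro. Leptomeningeal, vascular and OPC markers summed to at most 57.7, 23.2 and 23.0 CPM; Slc6a13 was at 0 in all 4 libraries and Flt1 had counts only in B6 library 2. The 2 choroid and ependymal markers, Ttr and Foxj1, have no label of their own and summed to 0 to 25.6 CPM, at most 40.8% of their sum in NN-VLMC. The 7 excitatory markers, Prox1 among them, summed to 459 and 392 CPM in B6 and 643 and 974 CPM in D2, 21.6% to 59.0% of the highest excitatory label.

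The study compared D2 with B6 within each cell type. In CR-CR, 147 of 6667 tested symbols differed at an adjusted p under 0.05 (2.20%; edgeR quasi-likelihood test), 53 higher in D2 (0.795%) and 94 lower (1.41%). For each of the 147, both D2 libraries lay on the same side of both B6 libraries. The call itself favours this, and the share over all tested symbols is not given. Without D2 library 3, 149 symbols were called, of which 91 were among the 147, and without D2 library 2, 460. Because libraries are pools of animals, the p-values measure the spread between pools.

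Of the markers Trp73, Reln and Lhx1, Trp73 was lower in D2, with a log2 fold change of -1.48 ± 0.36 (SE, adjusted p = 0.0345, edgeR). The call was not firm: without D2 library 3 the change was -0.77 (adjusted p = 0.208, edgeR), and with all 4 libraries DESeq2 gave an adjusted p of 0.0841. Summed over the other 16 labels, Trp73 was at 0.681 (B6) and 4.36 CPM (D2). Reln (-1.21 ± 0.35, adjusted p = 0.0862, edgeR) and Lhx1 (-0.07 ± 0.36, adjusted p = 0.957) did not pass. Reln was called by DESeq2 (adjusted p = 0.0153) and by edgeR without D2 library 2 (-1.95, adjusted p = 1.23e-16) or 3 (-0.72, adjusted p = 0.0355). Of the 8 transcription factors tested out of 19, Trp73 was the only one called, where 2.20% of all symbols were. The newborn neuron and other-cell sums given above differed between the strains as well, and their part in these differences was not tested.

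Other genes high in CR-CR were also lower in D2 and were chosen here after their values were seen. In the other labels summed, Tmem163 was also lower in D2 (41.0 CPM in B6, 22.0 CPM in D2), as was Cntnap2 (1889 and 1260 CPM). Dach1 (30.5 and 28.3 CPM), Eln (9.59 and 9.82 CPM) and Cd274 (0.828 and 0.678 CPM) were nearer to equal there. Dach1, a dachshund family co-repressor, was at 1071, 1311, 711 and 404 CPM (-1.18 ± 0.29, adjusted p = 0.0375, edgeR), a call lost without B6 library 2 or 3 (0.0884 and 0.396). Cd274, which encodes PD-L1, was at 118, 98.5, 29.9 and 12.8 CPM (-2.43 ± 0.49, adjusted p = 0.0106, edgeR) and lost its call without D2 library 3 (adjusted p = 0.0844). Tmem163, a zinc transporter gene, was at 587, 652, 352 and 96.1 CPM (-1.58 ± 0.36, adjusted p = 0.0249, edgeR); without D2 library 3 it was -0.88 (0.0544). Eln, which encodes elastin, was at 238, 243, 74.8 and 70.5 CPM (-1.80 ± 0.31, adjusted p = 0.00305, edgeR), the D2 libraries were alike, and the call held without each library in turn. Cntnap2, an adhesion molecule of the neurexin family, was at 6368, 8191, 3666 and 1980.0 CPM (-1.44 ± 0.35, adjusted p = 0.0373, edgeR; 0.0733 and 0.361 without B6 library 2 or 3).

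Pik3c2g had CR-CR counts in B6 alone. This class II phosphoinositide 3-kinase gene, on chromosome 6 at 139587221 to 139969284, was at 137 and 166 CPM in B6 (65 and 79 counts) and had no count in either D2 library. With 3 counts over the D2 libraries as the limit, it was at least 14.6-fold lower in D2. Other labels had at most 2.86 CPM in B6 and 1.65 CPM in D2. The call held without each library in turn (edgeR, adjusted p at most 4.33e-07).

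Egfr and Erbb4, receptors of the same family, were higher in D2. Egfr, the epidermal growth factor receptor, was at 31.6 and 29.3 CPM in B6 and 262 and 135 CPM in D2 (2.59 ± 0.38, adjusted p = 0.000844, edgeR). Erbb4, the neuregulin receptor, was at 37.9, 54.5, 202 and 327 CPM (2.45 ± 0.32, adjusted p = 0.000251, edgeR). Both calls held without each library in turn. In the other labels summed, Egfr was at 39.1 (B6) and 41.7 CPM (D2) and Erbb4 at 1053 and 924 CPM. The highest other label was Inh-Lamp5 for Erbb4, and for Egfr Inh-Lamp5 in B6 (434 CPM) and NN-Astro in D2 (359 CPM). Prox1 was higher in D2 (1.11 ± 0.27, adjusted p = 0.0345, edgeR), a call lost without D2 library 3 (adjusted p = 0.273) and without B6 library 2 or 3 (0.127 and 0.530). Nnat, an imprinted gene of developing neurons, was at 448, 360.3, 898 and 1211 CPM (1.31 ± 0.25, adjusted p = 0.00839, edgeR). Without B6 library 2 or 3 this call was lost. In the other labels summed, Nnat was also higher in D2, at 295 (B6) and 493 CPM (D2). Its highest other label, NN-VLMC, had 1416 CPM in B6 and 1889 CPM in D2.

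The newborn neuron and division lists were added after the values were seen, so their figures are descriptions. Among the newborn neuron genes, 10 of 13 were tested. Prox1 and Nnat were called higher and Tubb3, a neuronal tubulin, lower, where 2.20% of all symbols were called. Tubb3 was at 41.8 and 10.4 CPM in B6 and D2 elsewhere and was not called without B6 library 2 or 3. The median log2 fold change of the newborn neuron genes was 0.80, against 0.00 over all tested symbols. Sox11 and Dcx, 2 of its members, changed direction without D2 library 3. None of the 8 tested genes of the division list was called by edgeR (4 at an unadjusted p under 0.05, which 15.3% of all tested symbols had), with a median of 0.94; Lockd, Tipin and Smc4, outside that list and chosen after the values were seen, were called, Tipin with a difference elsewhere too (16.2 and 48.2 CPM) and Smc4 not without B6 library 2 or D2 library 3 (adjusted p = 0.144 and 0.133, edgeR). Lockd, a long non-coding RNA beside Cdkn1b, was at 18.9, 37.7, 112 and 173 CPM (2.26 ± 0.41, adjusted p = 0.00554, edgeR). Elsewhere it was at 1.00 (B6) and 2.63 CPM (D2). Slc1a3, the glutamate transporter of astrocytes and radial glia, was at 145, 96.4, 359 and 282 CPM (1.33 ± 0.27, adjusted p = 0.0121, edgeR; 0.311 without B6 library 3). Npas3 and Sox2ot, both highest in glia or interneurons, were higher by 1.40 ± 0.26 and 1.33 ± 0.30 (adjusted p = 0.00565 and 0.0217, edgeR). Without B6 library 3 neither was called (0.225 and 0.311), nor was Sox2ot without D2 library 2 (0.127).

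Of the receptor, channel and adhesion genes tested, 5 were called, 2 of 17 for glutamate receptors and 1 of 14, 1 of 21 and 1 of 21 for the other lists, where 2.20% of all symbols were. Gria4, an AMPA receptor subunit, was lower in D2 (785, 972, 539 and 256 CPM; -1.23 ± 0.30, adjusted p = 0.0392, edgeR) and Grik4, a kainate receptor subunit, higher (179, 149, 337 and 327 CPM; 0.94 ± 0.24, adjusted p = 0.0491, edgeR). Gabrb1, a GABA-A receptor subunit, was higher (255, 270.3, 561 and 538 CPM; 0.99 ± 0.23, adjusted p = 0.0294, edgeR), the inhibitory and modulatory receptor called. Kcnc2, which encodes the Kv3.2 potassium channel, was lower (541, 637, 322 and 115 CPM), as was Cntn3, a contactin of the guidance and adhesion list (183, 224, 97.3 and 57.7 CPM). Of these 5 genes only Kcnc2 kept its call without each library in turn. Gria4 and Grik4 lost theirs without B6 library 2, B6 library 3 or D2 library 3 (edgeR adjusted p = 0.0521, 0.312 and 0.0746, and 0.237, 0.58 and 0.0572), Gabrb1 without B6 library 2 or 3 (0.434 and 0.433), and Cntn3 without B6 library 3 or D2 library 3 (0.0592 and 0.145). Of 9 chemokine and trophic genes, Erbb4, given above, was the only one called. Kcnc2 fell by 1.53 ± 0.33 (adjusted p = 0.0183, edgeR). None of the 10 Reelin pathway, 6 transmitter, 3 peptide and 10 apoptosis genes tested was called by edgeR; at an unadjusted p under 0.05 the counts were 1 in each of these lists, against 15.3% of all symbols.

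**Figure D4:**
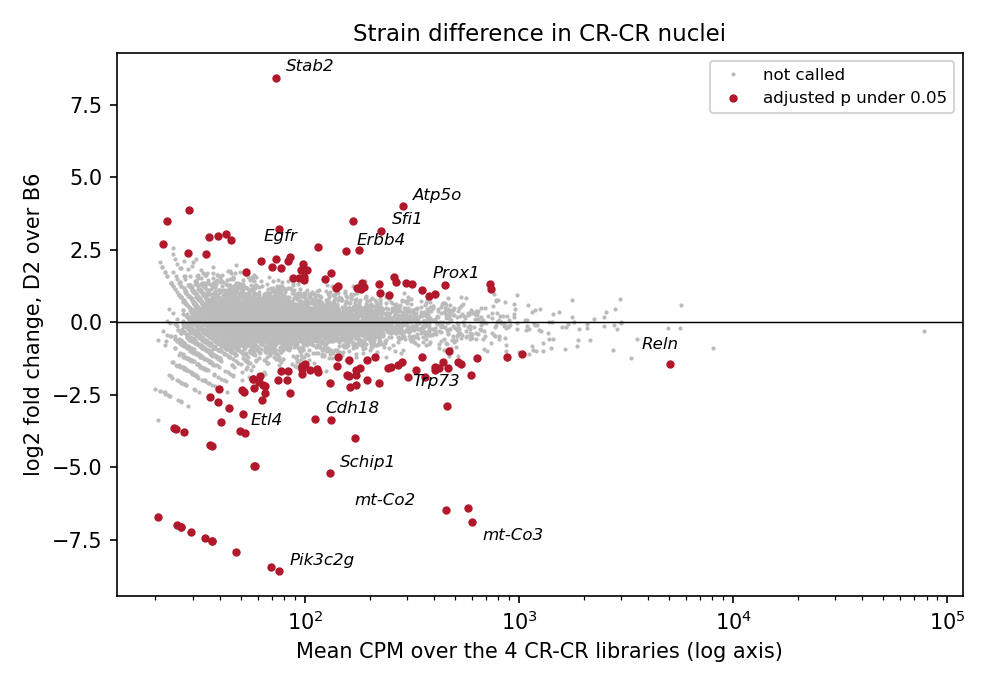
Log2 fold change of D2 over B6 in CR-CR (y axis) against the mean CPM of the 4 libraries (x axis, log scale) for the 6667 tested symbols, with the 147 called ones in red. Stab2 and Pik3c2g lie at the extremes, since each has no count in a strain, and Reln lies at -1.21 among the symbols not called.

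Among the genes with the largest differences, named by a rule that asked for a mean of 20 CPM and a count in every library, several differed by as much in the other labels. The mitochondrial transcripts mt-Co3, mt-Co2 and mt-Atp6, subunits of the respiratory chain and of ATP synthase, were at 1116 and 1274, 773 and 1022, and 935 and 1334 CPM in B6 and at most 19.2 CPM in D2. In the other 16 labels summed they were at 684, 479 and 655 CPM in B6 and at 3.50, 0.568 and 8.71 CPM in D2. Of 12 mitochondrial symbols tested, 6 were called lower; mt-Cytb (-0.37, adjusted p = 0.598, edgeR) and mt-Nd1 (-0.52, adjusted p = 0.438, edgeR) were not. Cox16, Gse1 and Commd1 were also lower in D2 both in CR-CR and in the other labels, Cox16 at 320.0 and 323 CPM in B6 and 22.4 and 19.2 CPM in D2 with 208 and 7.63 CPM elsewhere.

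Atp5o and Sfi1 ran the other way. Atp5o, an ATP synthase subunit, was at 23.2, 39.8, 531 and 551 CPM in CR-CR, and at 25.1 (B6) and 474 CPM (D2) in the other labels. Sfi1, a centrosomal protein gene, was at 44.2, 41.9, 419 and 404 CPM and at 43.1 and 353 CPM elsewhere. Mlycd (6.32, 10.5, 89.8 and 64.1 CPM) and Gm38394 did likewise; Mlycd was not called without B6 library 2 or 3 (edgeR adjusted p = 0.497 and 0.509). D2 reads were mapped to a genome carrying D2 variants, 8204 symbols had counts in D2 alone and 960 in B6 alone, GENCODE vM21 gives the symbol Atp5o to 2 gene entries, and Sfi1 overlaps other genes on its strand. The part of counting in these differences was not tested.

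Of the other genes named by the rule, several were nearer to equal between the strains elsewhere. Cdh18, a cadherin, was at 160.0 and 245 CPM in B6 and 22.4 and 19.2 CPM in D2 (-3.34 ± 0.47, adjusted p = 0.00054, edgeR), with 204 and 174 CPM in the other labels. Its highest other label, Exc-ENT, had 1322 CPM in B6 and 1098 CPM in D2. Etl4 was at 46.3, 138, 7.48 and 6.41 CPM (-3.74 ± 0.88, adjusted p = 0.0294, edgeR), with 747 and 706 CPM elsewhere. Gm28258, a predicted gene, went from 56.8 and 79.6 CPM in B6 to 7.48 and 12.8 CPM in D2. Syt2, a fast synaptic calcium sensor, was at 10.5, 6.28, 37.4 and 103 CPM and Mob3b at 12.6, 8.38, 37.4 and 122 CPM, with 9.13 and 11.2 CPM and 10.6 and 19.0 CPM elsewhere. Gm32647, a predicted gene whose highest label was Exc-CA3, was at 25.3, 27.2, 59.9 and 557 CPM, so D2 library 3 set its fold change (3.51, and 1.12 without that library). A430073D23Rik, Gm10561 and Zfp658 were higher in D2 both in CR-CR and elsewhere. In the other labels they were at 1.58 and 7.76, 6.65 and 19.5, and 3.43 and 9.43 CPM. With few B6 counts, A430073D23Rik, Syt2, Zfp658 and Mob3b were not called without B6 library 2 or 3 (edgeR adjusted p = 0.336 to 0.881), Mob3b and Commd1 not without D2 library 3 (0.496 and 0.233), Commd1 not without B6 library 3 (0.639) and Gm28258 not without B6 library 2 (0.269). The difference between CR-CR and the other labels was not tested, as they come from the same libraries.

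**Figure D5:**
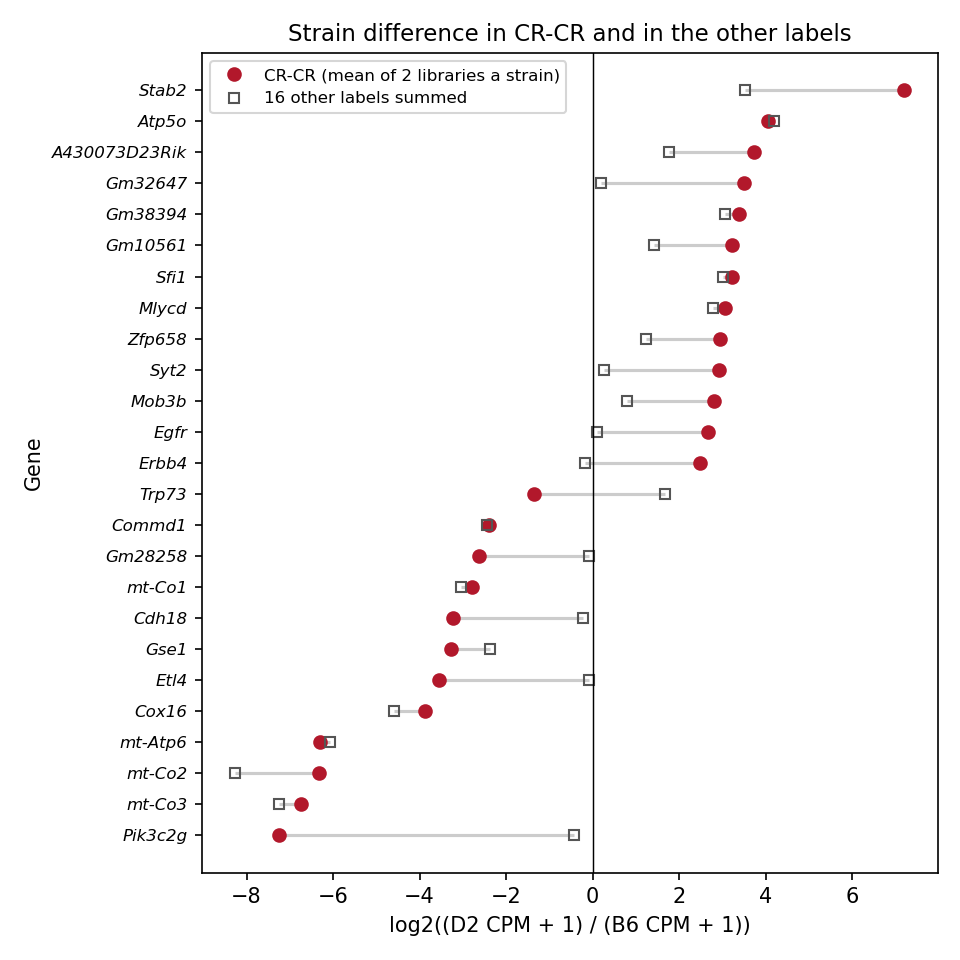
Strain difference as log2((D2 CPM + 1)/(B6 CPM + 1)) (x axis) for the 20 genes named by the rule plus Egfr, Erbb4, Trp73, Pik3c2g and Stab2 (y axis), in CR-CR (filled circles, means of 2 libraries a strain) and in the other 16 labels summed (open squares). For mt-Co3, mt-Atp6, Cox16, Atp5o and Sfi1 both symbols lie within 1 unit, for mt-Co2 they stand at -6.33 and -8.26, while those of Cdh18, Etl4, Egfr, Erbb4 and Pik3c2g lie apart.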

How the data were processed

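Nuclei of ventral hippocampus were profiled on the 10x Genomics platform. The authors aligned reads with Cell Ranger 6.0.2, introns included, to mm10 for B6 and to mm10 carrying D2 variants for D2, and filtered, integrated and clustered nuclei in Seurat 4.0.5 after doublet removal. They deposited raw counts per gene symbol summed over the nuclei of a label and library, and the number of nuclei per label. Column names number libraries 2 and 3 and titles number replicates 1 and 2, so columns were assigned to strains only.

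Of 33902 symbols, 24691 had a count in each strain over all labels, and CPM totals and tests used these; they held 95.7% to 99.0% of CR-CR counts. D2 was compared with B6 in the 4 CR-CR columns with edgeR 4.0.16 (TMM, filterByExpr, quasi-likelihood test, Benjamini-Hochberg adjustment, threshold 0.05); DESeq2 1.42.0 was an alternative. Depth limits the test. Counts were simulated with the same dispersion for all genes (coefficient of variation 0.138 between libraries) and no other difference between libraries of a strain. With 6107 genes tested, 75 of 90 genes changed 4-fold and 23 of 87 changed 2-fold were recovered, with 3 false calls among 101. These numbers hold for that setting and do not give the false calls of the real test. Libraries of a strain differed by more than sampling noise (chi-square per degree of freedom 1.47 and 1.87).

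Genes were named as members of gene lists, as identity genes, and as the 10 called symbols with the largest fold change in each direction among those with a mean of 20 CPM, a count in every library and strains that did not overlap. The members, rules and lists were chosen with earlier results of these data known. Levels of the other 16 labels were summed per strain as reference, with no error. A few genes are not reported here. Coordinates are from GENCODE vM21 and promoters from RefSeq. The accessibility tables used no CR-CR label, and the chromatin accessibility and methylation samples were not analysed here.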

Additional observations from a re-analysis of the deposited data

How the results depend on the processing

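The number of called symbols depended on the setting. Against 147, DESeq2 called 51, of which 44 were among the 147 (it tested 1950 symbols), a minimum of 10 counts in every library 83 of 2699 tested, and all symbols, also those counted in 1 strain only, 284. With no filter beyond 1 count, edgeR called 0 of 18754 symbols, with 1291 at an unadjusted p under 0.05. RLE size factors called 138. Of called symbols 36.1% were higher in D2, and 17.6% with DESeq2, 59.0% with the 10 count minimum and 51.1% with all symbols. Leaving out each library gave 90 to 460 calls: 133 and 90 without B6 library 2 or 3, and 460 and 149 with D2 library 2 or 3 left out; the lone library of a strain was then assumed to vary like the other strain. With the library number as a replicate block, 34 symbols were called, all among the 147. The numbers are not known to pair the libraries: deviations of same-numbered libraries correlated at -0.05 over 6667 symbols.

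Identity genes numbered 7 at 2 times the highest other label, 2 at 8 times (3 at 4 times), 6 with a minimum of 5 counts and 1 with a minimum of 20, 3 with all symbols in the total, and 3 to 10 without a library (10 without D2 library 3). Shares of nuclei were 2.82% in B6 and 0.952% in D2 over neuronal labels, and 1.76% to 1.96% and 0.562% to 0.729% with a library left out.

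Of the 65 named genes tested, 48 were called. Direction changed only for genes that were not called: over the left-out libraries the log2 fold change ran from -1.19 (without D2 library 2) to 0.61 (without D2 library 3) for Lhx1, from -0.73 (without D2 library 3) to 1.42 for Sox11, from -0.68 to 1.26 for Dcx and from -0.34 to 0.43 for Draxin; without B6 library 2, Lhx1 went to 0.0021; without B6 library 3, Draxin went to -0.22, and with no filter to -0.0056. Among the named genes, the block took the call from 26, the leave-outs from 1 to 18, DESeq2 from 8, RLE and the 10 count minimum from 2 each, and no filter from all 48, so that no named gene was called under every setting. Calls were also gained, by 13 named genes without D2 library 2, 4 without B6 library 2, 2 each without B6 library 3, with DESeq2 and with all symbols, and 1 without D2 library 3. Gm38394 and Psat1 did not pass the filter with a library left out. The peak comparison and the accessibility at identity genes were not run. Depth in D2, with 45 and 46 nuclei, limits every gene below a few counts.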

Other observations

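Avp, which encodes vasopressin, had 107 counts (224 CPM) in the CR-CR nuclei of B6 library 3 and none in the other 3 libraries. In the other labels it stood at no more than 0.808 CPM in B6 and 2.32 CPM in D2. It was the only symbol with 25 or more counts in a CR-CR library and under 10% of that CPM in the other library of the strain.

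The rule for named genes left out symbols with no count in a library, and these were chosen after their values were seen. Stab2, a scavenger receptor gene, had no count in B6 and 21 counts in each D2 library, at least 46.0-fold higher in D2 with 3 counts over the B6 libraries as the limit; in the other labels it was at 9.65 (B6) and 120.3 CPM (D2). Schip1, a gene that overlaps Iqschfp on its strand, was at 267 and 241 CPM in B6 and 0 and 12.8 CPM in D2, with 1108 and 48.7 CPM elsewhere. Rnf121, which had counts in every library, was at 48.4, 54.5, 277 and 333 CPM, with 37.9 and 675 CPM elsewhere.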
